A study of Rattus norvegicus with 18 samples.

Results

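The genes described here are 5 neurotransmitter genes measured in cultured rat cortical astrocytes: the synthesis enzymes Th and Gad1, the plasma membrane transporters Slc6a15 and Slc6a4, and the vesicular transporter Slc18a2. They were chosen by name, as every probe set whose annotation gives 1 of these 5 symbols alone, which gave 5 of the 720 genes named on the array and 7 of its 1322 probe sets. Of these 7 probe sets, 6 passed the filter on dim signals and were tested, and the 1 that did not, L00603_at for Slc18a2, was at most 42.7 on any array.

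The series holds 18 arrays of total RNA from cultured type-I cortical astrocytes of the rat. The 6 control arrays are of cells grown on laminin and nitrocellulose that met no peptide, and the labels give no time in culture for them. The 12 exposed arrays are of cells grown on an immobilized fragment (residues 25 to 35) of beta-amyloid, whose longer forms accumulate in Alzheimer's disease plaques, with 3 arrays each at 12 hours, 1 day, 3 days and 5 days. The source label of controls 1 and 2 reads cerebral cortex, and that of the other 16 arrays names type-I astrocytes. No strain or animal age is given, and the labels do not say whether the arrays of a group came from separate cultures, so p-values measure the spread between these arrays, which may be technical.

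Tyrosine hydroxylase (Th) catalyses the rate-limiting step of dopamine and noradrenaline synthesis, and glutamate decarboxylase (Gad1) makes GABA from glutamate. Slc6 transporters carry transmitters and amino acids into cells with sodium, and Slc18 transporters load monoamines or acetylcholine into vesicles. These genes are best known from neurons, and astrocytes are better known for clearing glutamate and GABA than for releasing monoamines.

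The promoters of the members are shown because the cAMP response element in the Th promoter is a textbook control site of that gene. RefSeq promoter windows on the rat build GRCr8 were held for 3 of the 5 members, Th, Gad1 and Slc18a2, and no window was held for Slc6a15 or Slc6a4. Each line gives the 250 bases before the annotated start of the gene, 5′ to 3′ on the gene's strand, with the letters TGACGTCA, the full cAMP response element, in capitals. The Th stretch lies at chr1:207508219-207508468 on the minus strand, the Gad1 stretch at chr3:75777202-75777451 on the plus strand and the Slc18a2 stretch at chr1:268399771-268400020 on the plus strand.
Th: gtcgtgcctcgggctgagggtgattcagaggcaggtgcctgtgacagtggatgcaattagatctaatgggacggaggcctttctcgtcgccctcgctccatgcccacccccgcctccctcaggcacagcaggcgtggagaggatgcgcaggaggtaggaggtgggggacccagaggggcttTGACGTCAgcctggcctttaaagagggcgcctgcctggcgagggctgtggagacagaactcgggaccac
Gad1: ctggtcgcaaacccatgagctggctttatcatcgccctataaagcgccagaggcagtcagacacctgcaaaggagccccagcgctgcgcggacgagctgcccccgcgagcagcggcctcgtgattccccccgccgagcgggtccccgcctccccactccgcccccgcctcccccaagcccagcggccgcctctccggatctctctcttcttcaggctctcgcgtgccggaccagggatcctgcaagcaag
Slc18a2: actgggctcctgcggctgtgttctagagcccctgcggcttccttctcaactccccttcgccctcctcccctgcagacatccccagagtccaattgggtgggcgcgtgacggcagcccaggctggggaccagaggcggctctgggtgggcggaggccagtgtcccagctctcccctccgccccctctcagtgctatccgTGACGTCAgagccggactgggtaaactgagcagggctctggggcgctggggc

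The element reads the same on both strands. It was found in the Th and Slc18a2 windows and not in the Gad1 window, and 612 of 33469 windows of 300 bases in the same table held it (1.83%). A match describes the letters only, and no measurement of binding was made here.

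Values are the deposited signal, a linear intensity that had been scaled between arrays. Before testing, signals under 11.3 were set to that floor, log2 was taken, and probe sets above 44.9 on at least 3 arrays were kept, 1027 in all. Folds are differences of mean log2 signal. Adjusted p-values are limma's, after Benjamini-Hochberg adjustment over the 1027 probe sets, with a threshold of 0.05. Signals of different probe sets are not compared with each other, and the small number of arrays limits the precision of every fold.

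By average linkage over all tested probe sets, the arrays fell into 2 clusters that cross the groups. Cluster 1 holds 7 arrays, namely controls 1 and 2, all 3 arrays at 12 hours, array 3 at 1 day and array 3 at 3 days, and cluster 2 holds the other 11, among them all 3 arrays at 5 days. The comparisons of 12 hours and of 5 days with the controls are therefore partly, and that of 5 days with 12 hours fully, a comparison between clusters. Each cell type marker was read on its probe set with the highest mean signal, and dimmer probe sets of the same gene were left out. One of these, rc_AI044517_at for Slc1a2, fell under the floor (lowest control 7.7). Of 13 astrocyte markers listed, 9 were measured and on these probe sets were above the floor on all 18 arrays, as were 7 of 8 measured neuron markers, 5 of 6 oligodendrocyte markers and both fibroblast and vascular markers. The astrocyte markers summed to 24388 to 38725 in the controls, 38835 to 40169 at 12 hours, 33994 to 36957 at 1 day, 26189 to 33700 at 3 days and 42519 to 43871 at 5 days, and S100b ran from 19.7 to 1209.0. Vim (8770.4 to 18831.2) and Glul (4981.2 to 12630.1) had the highest medians in this sum, which does not stand for each marker. Slc1a3 (S59158_at) read 259.8 to 3927.7 in the controls, 565.4 to 654.8 at 12 hours and 4329.3 to 4874.2 at 5 days. The 8 of 12 neuron markers that were measured summed to 2968 to 3115 at 12 hours, 3059 to 4685 in the controls, 4326 to 4896 at 1 day, 3415 to 5677 at 3 days and 4003 to 4977 at 5 days, most of it from Eno2 (2122.9 to 3833.6). The 2 measured fibroblast and vascular markers of 11, Igf2 and Pdgfrb, summed to 3562 to 9283 on the arrays of cluster 1 and to 491 to 935 on those of cluster 2. This gap rests on Igf2 (211.2 to 8743.8 over all arrays), while Pdgfrb ran only from 225.7 to 590.3. The 6 oligodendrocyte markers of 11 summed to 1105 to 1977, with Mag at 283.2 to 524.5, Cnp at 229.9 to 817.8 and Pdgfra at 136.6 to 1148.5, while Sox10 was at the floor on 17 arrays. Of 7 microglia markers only Itgam was measured (22.3 to 77.0). In bulk RNA, fewer cells of a type and less RNA per cell cannot be told apart, and the part of other cell types in the results was not tested.

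**Figure D1:**
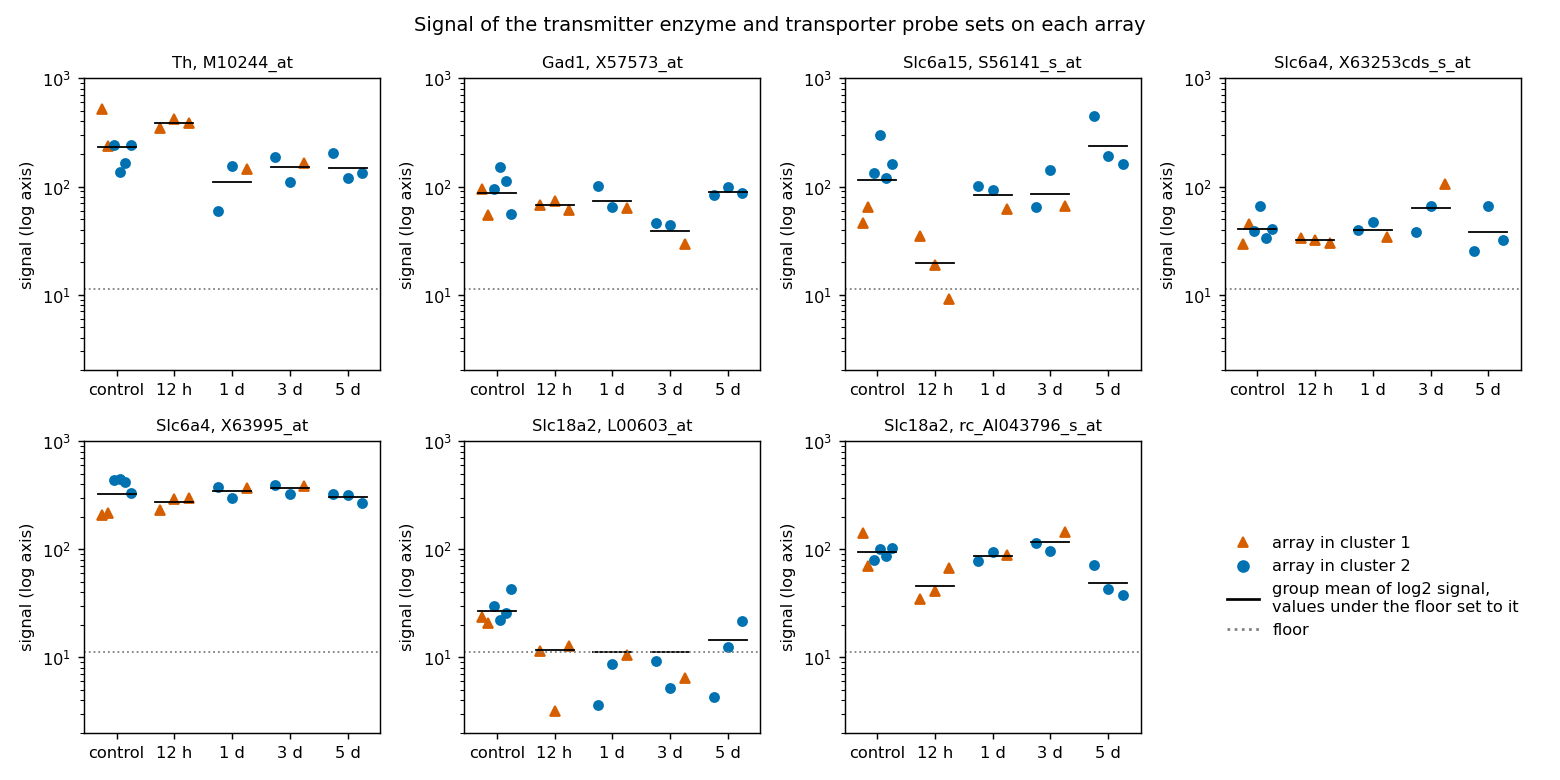
Signal (log axis) of the 7 probe sets of Th, Gad1, Slc6a15, Slc6a4 and Slc18a2 on each of 18 arrays by group, with array clusters as symbols, group means of log2 signal as lines and the floor of 11.3 dotted. The 3 arrays at 12 hours are below every control for Slc6a15 and for both Slc18a2 probe sets, and all lie in cluster 1.

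Against the controls, 1 of the 6 tested probe sets passed the threshold at 12 hours (Slc6a15, lower) and 0 passed at 1, 3 or 5 days or for the mean of the 4 times. Over all tested probe sets, 1.66% passed at 12 hours, 0.292% at 1 day, and 0% at 3 days, at 5 days and for the mean of the 4 times. Beside these counts of 0, limma's unadjusted p was under 0.05 for 1 member at each of 1, 3 and 5 days and for the mean, and over all probe sets for 120, 47, 94 and 77. Between times, 2 of the 6 passed for 5 days against 12 hours (Slc6a15 higher, Th lower), where 16.5% of all probe sets passed without, and 0 of 1027 with, the array cluster as a block. None of the 6 passed for 1 day against 12 hours (0% of all), 3 days against 1 day (0.0974%) or 5 days against 3 days (0.292%). In these comparisons limma's unadjusted p was under 0.05 for 3, 1 and 3 members, and over all 1027 probe sets for 150, 86 and 118. The F-test over the 5 groups called 1 of 6 (Slc6a15, limma adjusted p = 0.0457), against 1.66% of all probe sets. With the array cluster as a block, where the F-test called 26 of 1027 probe sets, Slc6a15 lost this call (0.115) and Slc18a2 on rc_AI043796_s_at, at 0.0575 without the block, gained it (0.0419). The median fold of the 6 at 12 hours was -0.38 on the log2 scale, beside -0.18 over all tested probe sets.

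Counted by ranges instead, 2 of the 6 tested members did not overlap the controls at 12 hours (15.2% of all), 0 at 1 day (1.95%), 1 at 3 days (1.56%) and 0 at 5 days (5.36%). Between times, 5 of 6 did not overlap for 1 day against 12 hours (33.9% of all), 2 for 3 days against 1 day (11.3%), 4 for 5 days against 3 days (24%) and 3 for 5 days against 12 hours (53.7%).

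Among the synthesis enzymes, Th (M10244_at) had control signals of 135.4 to 525.9 with a median of 239.7. At 12 hours the 3 arrays read 350.7, 425.7 and 391.1, and at 1 day 58.8, 154.0 and 146.2. The 12 hour arrays lay above 5 of the 6 controls and under control 1, while the 1 day arrays overlapped the low end of the controls. At 3 days Th read 187.8, 110.1 and 163.4, and at 5 days 202.6, 120.2 and 132.7, both within or just under the control range. In the order of group means, 12 hours was highest, followed by control, 3 days, 5 days and 1 day, and every neighbouring pair overlapped.

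Th fell between 12 hours and 5 days by 1.39 ± 0.44 (SE) on the log2 scale, 2.62-fold, with an adjusted p of 0.0459 in limma, and the ranges did not overlap. With the array cluster as a block the fold was -0.75 and the adjusted p 0.498, and leaving out 1 array at a time kept the call in 7 of 18 fits, with folds of -1.62 to -1.24 in the 11 that lost it. All 7 left out a control, 1 day or 3 day array, which does not change this fold. Every fit without a 12 hour or 5 day array lost the call. Against control, the Th fold was 0.73 ± 0.38 at 12 hours (adjusted p = 0.213), -1.09 ± 0.38 at 1 day (0.337), -0.64 at 3 days (0.999) and -0.66 at 5 days (0.539). None of these 4 passed. At 12 hours the Th fold was 0.30 with the cluster as a block (limma adjusted p = 0.668) and 0.14 within cluster 1 (0.853). Without controls 1 and 2, whose source label differs, it was 1.02 (0.0398), but those are the only controls in cluster 1, so this fit sets 12 hour arrays of cluster 1 against controls of cluster 2, where time and cluster cannot be told apart. The Th difference for 1 day against 12 hours, -1.82 in the full fit (0.0846), passed without these controls (0.0292) and not with the block (-1.39, 0.144).

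Gad1 (X57573_at) had control signals of 54.2 to 151.4 with a median of 94.95. It read 67.5, 72.9 and 61.1 at 12 hours, and 100.4, 64.9 and 62.7 at 1 day. At 3 days the 3 arrays read 46.3, 44.3 and 29.3, and at 5 days 82.9, 99.5 and 86.3. The 3 day arrays were under every other array of the series, and the other times overlapped the controls.

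The Gad1 fold at 3 days was -1.17 ± 0.30 (SE) on the log2 scale, 2.24-fold lower, which did not pass (limma adjusted p = 0.665, unadjusted p = 0.0013). The controls and the 3 day arrays have the same share of arrays in cluster 1, so the cluster as a block could not change this fold (-1.17, adjusted p = 0.179). It was -1.30 within cluster 1, which holds a single 3 day array, and -1.10 within cluster 2. The Gad1 ranges at 3 days and 1 day did not overlap, as for 11.3% of all probe sets, so any pairing of these arrays gives the same direction. The fold was -0.92 ± 0.34 (limma adjusted p = 0.49) and did not pass. With the array number as a block, over arrays 1 to 3 of each group, the limma adjusted p was 0.345. From 3 days to 5 days the fold was 1.19 ± 0.34 (adjusted p = 0.157). Against control the fold was -0.39 at 12 hours (limma adjusted p = 0.376), -0.24 at 1 day (0.85) and 0.02 at 5 days (0.972), each with an SE of 0.30. None of these passed, and the control arrays had an SD of 0.58.

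Among the plasma membrane transporters, Slc6a15 (S56141_s_at) is a sodium-dependent carrier of branched-chain amino acids and proline. Controls 1 to 6 read 45.6, 64.4, 133.0, 301.2, 119.4 and 160.8. At 12 hours the arrays read 34.9, 18.7 and 9.2, the last of them under the floor. All 3 were under every control, and the 2 lowest controls, 1 and 2, share their cluster. At 1 day Slc6a15 read 100.3, 92.0 and 62.0, and at 3 days 65.0, 143.1 and 65.6. At 5 days it read 445.5, 191.2 and 160.0. The 1 and 3 day arrays sat within the control range, and 1 of the 5 day arrays lay above it.

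Slc6a15 fell at 12 hours by 2.56 ± 0.53 (SE) on the log2 scale, 5.88-fold, with an adjusted p of 0.0382 in limma. The call was lost with the array cluster as a block (-1.82, adjusted p = 0.114), within cluster 1 (-1.48, 0.374) and in 13 of 18 fits that each left out 1 array (folds -2.98 to -2.16, adjusted p 0.0505 to 0.157), and without controls 1 and 2, which leaves only controls of cluster 2, the fold was -3.10 (0.000982), with time and cluster then not to be told apart. From 12 hours to 5 days Slc6a15 rose by 3.62 ± 0.62, 12.3-fold, with a limma adjusted p of 0.00775. That call held in 17 of 18 fits that left out 1 array, the exception being the fit without array 2 at 12 hours (3.59, 0.0500008). Only the fits without a 12 hour or 5 day array can change this fold, and the exception is among them. With the cluster as a block the rise was 2.51 with an adjusted p of 0.15. The folds at 1 day (-0.46, adjusted p = 0.841), 3 days (-0.43, 0.999) and 5 days (1.06, 0.52) against control did not pass, and of neighbours in the order of group means, 5 days, control, 3 days, 1 day and 12 hours, only 1 day and 12 hours did not overlap.

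The serotonin transporter Slc6a4, which takes serotonin back up at synapses, had a dim and a brighter probe set. The dim one, X63253cds_s_at, had control signals of 29.7 to 66.4 with a median of 39.4. It read 33.7, 31.7 and 30.1 at 12 hours, 39.7, 46.7 and 34.1 at 1 day, 37.6, 65.9 and 104.9 at 3 days and 25.1, 65.6 and 32.3 at 5 days. Array 3 at 3 days alone lay above the controls, and all 4 times overlapped them.

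The brighter one, X63995_at, had control signals of 209.1 to 447.7 with a median of 373.9. It read 231.8, 290.5 and 294.8 at 12 hours, 379.2, 294.9 and 368.4 at 1 day, 396.3, 325.8 and 386.1 at 3 days and 322.3, 318.0 and 267.8 at 5 days. All 12 exposed arrays lay within the control range, whose 2 lowest values were controls 1 and 2. Slc6a4 folds against control ran from -0.36 to 0.65 on the first probe set and from -0.27 to 0.17 on the second, and none passed. Without controls 1 and 2, X63995_at gave -0.58 at 12 hours (limma adjusted p = 0.0246), again against controls of cluster 2 only, while within cluster 1 the fold was 0.35 and with the cluster as a block 0.00. Over 18 arrays the log2 signals of the 2 probe sets had a Pearson r of 0.326, a description of arrays that share groups and clusters.

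**Figure D2:**
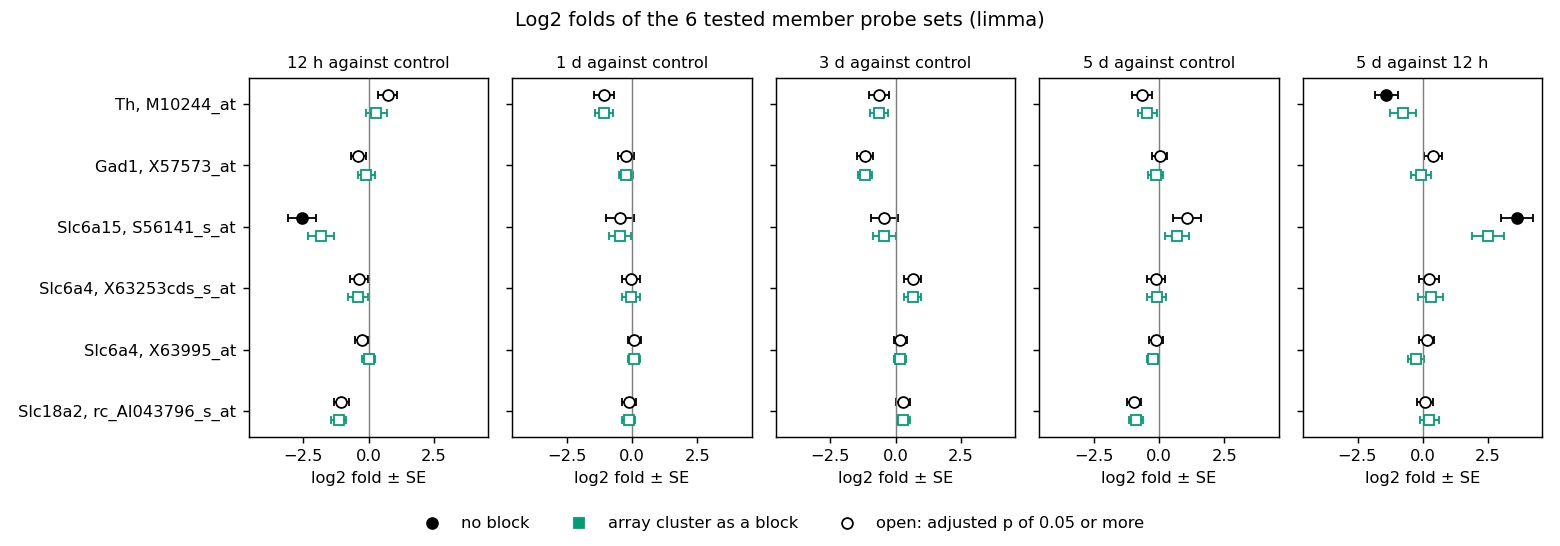
Log2 folds ± SE of the 6 tested probe sets for each time against control and for 5 days against 12 hours, without a block (circles) and with the array cluster as a block (squares), filled where limma's adjusted p was under 0.05. The 3 filled points are Slc6a15 at 12 hours and Slc6a15 and Th for 5 days against 12 hours, and no square is filled.

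Slc18a2, the vesicular monoamine transporter that loads dopamine, noradrenaline and serotonin into vesicles, also had 2 probe sets. On rc_AI043796_s_at the controls ran from 70.0 to 141.1 with a median of 93.8. It read 34.8, 41.4 and 67.7 at 12 hours, and 77.8, 93.6 and 87.7 at 1 day. At 3 days it read 113.8, 96.9 and 143.3, and at 5 days 71.9, 42.7 and 37.6. The 12 hour arrays were under every control, 2 of the 5 day arrays were too, and the 1 and 3 day arrays overlapped the controls.

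On this probe set the Slc18a2 fold at 12 hours was -1.04 ± 0.27 (SE), 2.05-fold lower, which missed the threshold (limma adjusted p = 0.0642). It was -1.15 with the cluster as a block (0.104), and passed without controls 1 and 2 (adjusted p = 0.0143, against controls of cluster 2 only), without control 1 alone (-0.92, 0.0257) and without control 2 alone (-1.12, 0.0425). The fold was -0.95 ± 0.27 at 5 days (0.36), and -1.26 ± 0.31 for 5 days against 3 days (0.0902). At 1 day it was -0.13 and at 3 days 0.30, with an adjusted p of 0.934 and 0.999. The signal was higher at 3 days than at 1 day without overlap of the ranges, as for 11.3% of all probe sets in either direction. That fold was 0.44 and did not pass (0.815).

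The other Slc18a2 probe set, L00603_at, was too dim for the filter. Controls 1 to 6 read 23.4, 21.0, 29.8, 22.3, 25.5 and 42.7. It read 11.4, 3.2 and 12.7 at 12 hours, 3.6, 8.6 and 10.6 at 1 day, 9.3, 5.2 and 6.4 at 3 days and 4.3, 12.5 and 21.6 at 5 days. Of the 12 exposed arrays, 11 were under every control, and array 3 at 5 days lay between the lowest controls. All 6 arrays at 1 and 3 days were under the floor, so differences among them were not measured.

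With no filter, where 1263 probe sets were tested, L00603_at gave a fold of -1.18 ± 0.22 at 12 hours (limma adjusted p = 0.031) and was at least 2.36-fold lower at 1 day (0.0212). The 12 hour call was lost with the cluster as a block (-1.04, 0.0938), within cluster 1 (-0.91, 0.122), with the floor at the 5th percentile (-1.43, 0.0517) and with log2(signal + 16) (-0.80, 0.0688). The 1 day call held with the block (0.0128) and within cluster 2 (0.0264). The block could not change the 1 day fold, because the controls and the 1 day arrays have the same share in cluster 1. The 1 day call was lost with the lower floor (0.0556) and with log2(signal + 16) (0.113). Leaving out 1 array at a time lost the 12 hour call in 5 of 18 fits and the 1 day call in 3 of 18. Within cluster 1, which holds a single 1 day array, the fitted fold was -0.97. The share of all probe sets that passed was 2.14% at 12 hours and 0.317% at 1 day. At 3 days it was also at least 2.36-fold lower, with an adjusted p of 0.0635 that missed the threshold, and at 5 days the fold was -0.88 (0.234). For the mean of the 4 times against control the fitted fold was -1.13 ± 0.15 (0.00385), and 1 of 1263 probe sets, this one, passed (0.0792%). Of the 12 exposed arrays 8 were at the floor, which sets their values and makes the SD of the 1 and 3 day groups 0, so this fold and its SE depend on the floor and are no measured size. The fitted fold was -1.11 with the cluster as a block (0.0059), -1.26 without controls 1 and 2 (0.00347) and -1.20 to -0.99 in the 18 fits that each left out 1 array, all of which passed. It did not pass with log2(signal + 16) in place of the floor (-0.80, 0.0705), and on rc_AI043796_s_at the same mean was -0.45 ± 0.19 (0.621 over the 1027). The Pearson r between both Slc18a2 probe sets was 0.181 over 18 arrays.

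**Figure D3:**
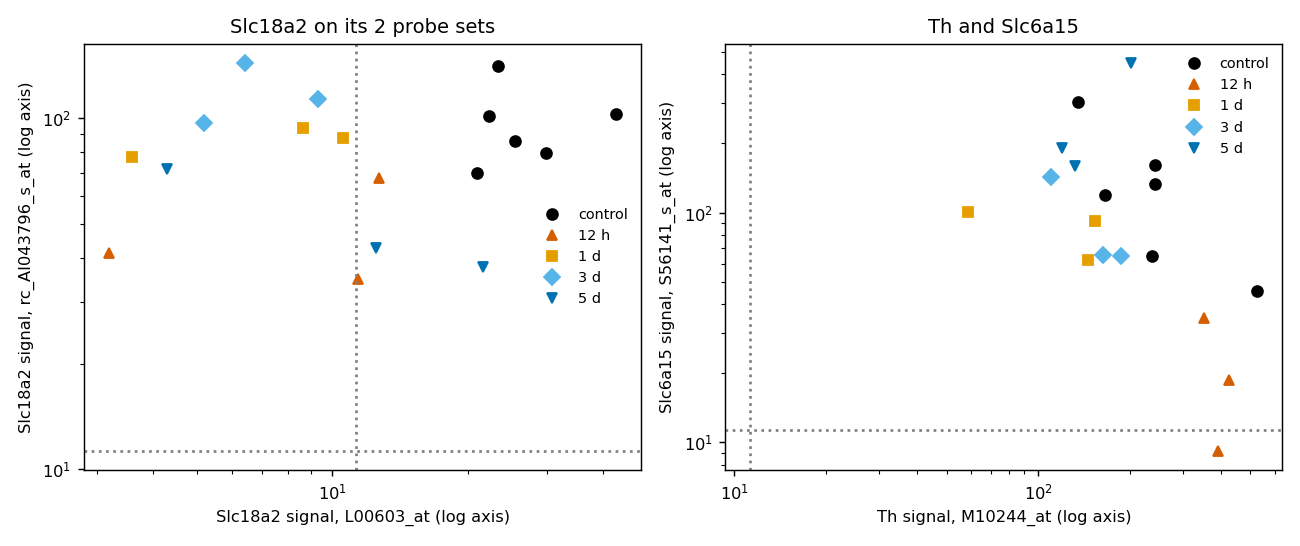
Signals on log axes, 1 point per array (18 arrays), of both Slc18a2 probe sets (left) and of Th and Slc6a15 (right), with the floor of 11.3 dotted. On L00603_at 11 of 12 exposed arrays lie left of every control while rc_AI043796_s_at is low only at 12 hours and 5 days. The 12 hour arrays, all in cluster 1, have as a group the lowest Slc6a15 of the series, and Th above every other array but control 1.

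Each tested member was also set against all other named probe sets by Pearson r of log2 signal over the 18 arrays, which share groups and clusters. Slc6a15 was most like Fyn (0.912), Cxcr4 (0.893) and Bcan (0.875). Th was most like Ccl5 (0.785), Il6r (0.756) and Gnb1 (0.752), and its r with Ccl5 was 0.933 within cluster 1 and -0.184 within cluster 2. Gad1 was most like C3 (0.733), Apoe (0.637) and Vcam1 (0.623). For Slc6a4, X63253cds_s_at was most like Calm2 (0.668), Mipep (0.599) and Smarcb1 (0.592), and X63995_at like Cit (0.720), Prkar2a (0.692) and Abcb6 (0.687). Slc18a2 (rc_AI043796_s_at) was most like Scn3a (0.698), Scnn1a (0.672) and Rpsa (0.670). Within clusters the r values could differ widely: Mipep had 0.898 with X63253cds_s_at in cluster 1 and 0.0855 in cluster 2, and Bcan 0.447 and 0.805 with Slc6a15. These are the highest of many values and describe these arrays only.

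The other genes of the same pathways were read from 4 lists. Of 22 synthesis enzymes, 7 genes were measured, with 8 tested probe sets. At 12 hours 1 of the 8 rose and 0 fell, with a median fold of 0.68 beside -0.18 over all probe sets. Of the 8 probe sets 4 are of 1 gene, Glul (0.63 to 0.95), and these and Th (0.73) set the median, while Tph1 was at 0.20, Gad1 at -0.39 and Ddc at -0.54. The 1 that rose was Glul, the enzyme that turns glutamate into glutamine in astrocytes, on rc_AI012265_i_at. It read 242.2 to 504.6 in the controls and 608.5 to 709.8 at 12 hours, a rise of 0.92 ± 0.21 (limma adjusted p = 0.0439) that was 0.94 with the cluster as a block (0.0944). For 5 days against 12 hours, where 16.5% of all probe sets passed, 2 of the 8 fell, Th and the same Glul probe set (-0.84, 0.0409, and -0.87 with the block, 0.216). The enzymes next to Th in catecholamine and serotonin synthesis, Ddc, Dbh and Tph1, had no probe set that passed, and 1 of the 2 Ddc probe sets and the Dbh probe set were too dim to test.

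Of 10 breakdown enzymes 5 were measured, with 8 tested probe sets, and 1 rose for 5 days against 12 hours, beside the same 16.5%. This was Maob, which oxidises monoamines in astrocytes, at 67.4 to 69.6 at 12 hours and 202.3 to 292.6 at 5 days (1.88 ± 0.48, limma adjusted p = 0.0282, and 1.04 with the block, 0.333). Of 19 Slc6 transporters 5 were measured, all 7 probe sets were tested, and Slc6a15 was the only one to pass in any comparison. The dopamine transporter Slc6a3 and the GABA transporters Slc6a11 and Slc6a13 did not pass.

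Of 18 vesicular and other transporters 7 were measured, with 15 tested probe sets. At 1 day 1 rose, the glutamate transporter Slc1a2 on rc_AI044517_g_at, from 18.2 to 45.8 in the controls to 79.5 to 152.8 (1.88 ± 0.31, limma adjusted p = 0.0151, and 0.00498 with the block, which could not change this 1 day fold). Its other 2 probe sets did not pass. For 5 days against 12 hours 2 of the 15 rose, beside 16.5% of all, both of the glutamate transporter Slc1a3 (3.52 on S75687_s_at and 3.28 on X63744_g_at), with 0.35 and 0.52 under the block. Its other 2 probe sets did not pass, S59158_at at 2.88 (limma adjusted p = 0.0822) and X63744_at at -0.59 (0.263). The vesicular transporters of acetylcholine (Slc18a3) and GABA (Slc32a1) did not pass.

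**Figure D4:**
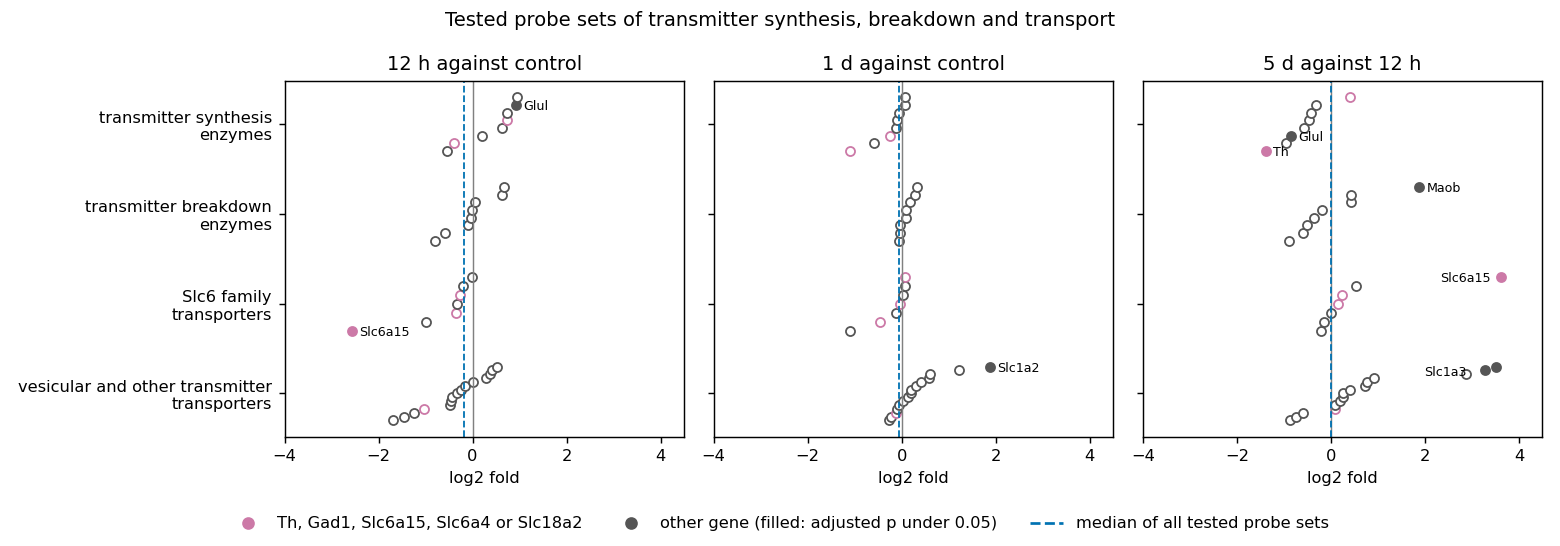
Log2 folds of the tested probe sets in 4 lists at 12 hours and 1 day against control and for 5 days against 12 hours, the members in pink, probe sets with a limma adjusted p under 0.05 filled and named once per gene, and the median of all 1027 probe sets dashed. Most of the points are open, and the filled ones at 12 hours are Slc6a15 (-2.56) and Glul (0.92).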

How the data were processed

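The values are the deposited intensity table of 18 arrays, 1 linear signal per probe set, which the authors had already scaled between arrays: the mean without the lowest and highest 2% was 502.1 to 502.6 on every array. Which software made them is not stated: it was not given in the sources used here. Median signals were 101.6 to 133.1, and 6.33% to 12.5% of signals per array lay under the floor. No detection calls were used.

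Leaving aside 59 control probe sets, 1263 remained. Their signals under the 10th percentile (11.3) were raised to it, and 1027 probe sets above the 30th percentile (44.9) on at least 3 arrays were tested. In the platform annotation 1137 had 1 symbol, 8 several and 118 none. The 5 groups were fitted in 1 model with limma 3.58.1 (R version 4.3.3) by lmFit with eBayes, two-sided, with 13 residual degrees of freedom, and the procedure was tested on simulated data. Tables were made with Python 3.11.15, pandas 2.3.3 and numpy 2.4.6. Folds near the floor are understated, and a group wholly at the floor gives a bound.

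The rule for named genes was every probe set of a member, every listed pathway gene past the threshold (up to 6 a direction) and the 3 probe sets most like each tested member. Pathway genes named without a call were chosen after their values were seen. The members, lists and rules were chosen with earlier results of these data known. Alternatives covered the floor, filter, scaling, array clusters, controls 1 and 2, the replicate numbers and each array left out, and those of the unfiltered Slc18a2 probe set were added after seeing the data. The replicate block used arrays 1 to 3 of each group only, without controls 4, 5 and 6.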

Additional observations from a re-analysis of the deposited data

Results flagged for a closer look

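In the controls, the Th signal of control 1 (525.9) stood apart from the other 5, with a gap to the next of 0.723 of the range on the linear scale, above Dixon's 0.625. On the log2 scale, which the tests used, the share was 0.568, under that value, and no other member probe set had a control array past it on either scale. Chance marks about 1 in 20 such groups, and 14 were examined over both scales. Results at different exposure times differed by a test of the difference itself in 2 cases. The Slc6a15 response (S56141_s_at) at 5 days exceeded that at 12 hours by 3.62 on the log2 scale (limma adjusted p = 0.00775), from 9.2 to 34.9 at 12 hours to 160.0 to 445.5 at 5 days. The Th response (M10244_at) at 5 days was lower than that at 12 hours, with a log2 difference of -1.39 (adjusted p = 0.0459). All 12 hour arrays lie in cluster 1 and all 5 day arrays in cluster 2, so time and cluster cannot be told apart in these arrays alone. With the cluster as a block, which is estimated from the other groups, the differences were 2.51 (0.15) and -0.75 (0.498).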

How the results depend on the processing

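Of 717 member folds recomputed under alternatives, 690 kept their side of the threshold, 18 lost it and 9 gained it, and no called value changed sign. Of 1062 with 1 array left out, 1023 kept it, 33 lost it and 6 gained it. Most of these folds were not called to begin with, and only a called fold can be lost. Under alternatives Slc6a15 lost its call at 12 hours in 5 of 13 fits, and for 5 days against 12 hours in 1 of 12. Th lost its call for 5 days against 12 hours in 4 of 12. The unfiltered L00603_at lost its call in 4 of 7 at 12 hours, 3 of 8 at 1 day and 1 of 6 for the mean. The number of members called at 12 hours, 1 in the report, was 2 with no filter, 4 without controls 1 and 2, and 0 with quantile normalization, cyclic loess, the replicate block, the cluster block or within cluster 1, and 0 to 2 with 1 array left out. At 1 day and for the mean of the 4 times it was 1 with no filter instead of 0. For 1 day against 12 hours it was 2 without controls 1 and 2, where 22 of 1027 probe sets passed, and 0 to 1 with 1 array left out (0 to 24 of all). For 5 days against 3 days it was 1 without controls 1 and 2, where 18 of 1027 passed. For 5 days against 12 hours, 2 in the report, it was 1 with no filter, quantile normalization or the replicate block, 0 with the cluster block, and 0 to 2 with 1 array left out. For the F-test, 1 in the report, it was 4 without controls 1 and 2, 0 with the floor at the 20th percentile, log2(signal + 16), the filter at the 50th percentile, quantile normalization, median centring or cyclic loess, and 0 to 3 with 1 array left out. Over all 1027 probe sets the F-test called 17 in the report and 219 without controls 1 and 2. With 1 array left out it called 1 to 114, the 114 without control 1, where 3 members passed. Replicate numbers paired the arrays in 1 of 10 group pairs, 1 day with 3 days, where all correlations of same-numbered arrays were above 0.1 (0.39, 0.429 and 0.683, with both arrays 3 in cluster 1), and over all pairs they ran from -0.60 to 0.683. For 3 days against 1 day the replicate block called 0 members and 2 probe sets in all, against 1 without it. With the replicate block, which left out controls 4, 5 and 6, Slc6a15 at 12 hours was -1.91 (limma adjusted p = 0.328). The block itself cannot change this fold, which was -2.56 with all 6 controls. Over all probe sets, calls at 12 hours numbered 17 in the report, 27 with no filter, 9 with quantile normalization, 4 with cyclic loess, 3 with the cluster block, 0 within cluster 1, 321 without controls 1 and 2, and 1 to 211 over the fits that left out 1 array (control 1 gave the 211 and control 2 gave 31). For 5 days against 12 hours they numbered 169, 98 with no filter, 94 with quantile normalization, 0 with the cluster block and 1 to 33 without any 1 of the 12 hour or 5 day arrays (1 without array 2 at 12 hours), and 76 to 215 without any 1 of the other arrays. The cause of these changes was not tested. Signals near the floor limit Slc18a2 on L00603_at and Slc6a15 at 12 hours.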
